A study of Mus musculus with 29 samples.

Results

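The genes described here encode the proteins of the cytosolic ribosome. They were taken from the gene table by name: every symbol made of Rps or Rpl and a number (with the suffixes a, x, y and l), together with Rplp0, Rplp1, Rplp2 and Rpsa, and without symbols that carry the pseudogene mark -ps. The rule found 85 of 24448 gene rows, 52 named for the large and 33 for the small subunit. Of these, 8 were paralogs of another member (Rpl3l, Rpl7l1, Rpl10l, Rpl22l1, Rpl36al, Rpl39l, Rps4l and Rps27l), and the other 77 are called main genes below. Fau, whose product is cut to give a ribosomal protein, lies outside the rule.

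A ribosome holds 1 copy of nearly every ribosomal protein, so their mRNAs are made in balanced amounts in most cells. In mammals these mRNAs begin with a run of pyrimidines, the terminal oligopyrimidine (TOP) tract, through which mTOR and LARP1 control their translation as a group. The oocyte stores ribosomes and mRNA, and the embryonic genome of the mouse becomes broadly active at the 2-cell stage. Ribosomal protein genes are then among the genes that are transcribed anew. Several paralogs are known from germ cells or muscle, such as Rpl10l and Rpl39l in the testis and Rpl3l in striated muscle.

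Each embryo library held 1 whole 2-cell embryo of the BDF1 strain, made by placing a cumulus cell nucleus in an enucleated oocyte. Embryos were activated for 6 h with 10 mM strontium, EGTA and an agent the labels call CB, and were taken 28 h after activation. The 9 control embryos were cultured without hydroxyurea (HU), which inhibits ribonucleotide reductase and so slows DNA replication. The other 8 embryos had 10 uM HU until it was removed after 24 h. Another 12 libraries each held 1 cumulus cell, the somatic cell type that supplied the nuclei. The labels name no day, female or culture, so the p-values below measure the spread between these embryos, which may be technical, and the 12 cumulus cells count as 1 sample. Gene counts summed to between 1801261 and 3472116 per control embryo, 2442541 and 3757492 per HU embryo, and 317195 and 4051494 per cumulus cell.

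The defining genes of each cell type were checked against the labels. Oocyte and embryo genes summed to between 8592 and 23340 CPM (counts scaled to a fixed library size) in the embryos, with 11 of 12 detected (Oog1 had no count). In the cumulus cells they summed to between 7.14 and 224.7 CPM, and 8 of 12 had no count. Cumulus and granulosa genes summed to between 151 and 4232 CPM in the cells, with 13 of 14 detected (Areg had no count), and to between 23.7 and 90.6 CPM in the embryos. The theca and stroma, immune, endothelial and erythroid lists summed to at most 67.7 CPM in any embryo and 244 CPM in any cell. The value of 244 CPM was that of the immune list, whose median over the cells was 0.639 CPM. Rn45s, the precursor of ribosomal RNA, took 15.2% to 32.5% of gene counts in embryos and 49.3% to 86.6% in cells.

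The pyrimidine run was looked up in the RefSeq promoter table (build GRCm38.p6), which matched 64 of the 85 members. The longest run of C and T on the gene's strand was taken within 50 bases on either side of the annotated start. It reached 10 bases or more in 41 of the 64 members (64.1%), against 18.0% of all 27025 promoters of that length, with a median run of 10 against 7. The letters CCGGAAG, the core that ETS factors such as GABPA bind, stood on either strand of the 300-base promoter in 39.1% of members against 9.12% of all promoters. AAGATGGC, the YY1 motif, stood in 7.81% against 2.88%, and TATAAA in 9.38% against 14.2%. These are letters in a window and not sites shown to be used. The windows below, 5′ to 3′ with the longest run in capitals, show 5 members with a run of 10 bases or more. They also show 3 members with a shorter run, and the results return to all of these members.

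Rpl4: gagcgtggCCTTCTCCTCTCCCCgtcatgg
Rpl14: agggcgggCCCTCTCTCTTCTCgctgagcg
Rplp2: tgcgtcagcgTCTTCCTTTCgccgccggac
Rpl9: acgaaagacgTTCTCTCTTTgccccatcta
Rpl36a: cggctctagCCTCTCTCTTTCCgagctgct
Rps27l: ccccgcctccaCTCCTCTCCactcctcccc
Rpl19: cgacttagcgtgaCTTCCggctacccagag
Rpl10l: tcagtctctatgaTTCCCgcaaggcttgat

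They lie at chr9:64173405-64173434 on the plus strand for Rpl4, chr9:120571501-120571530 on the plus strand for Rpl14, chr7:141447636-141447665 on the plus strand for Rplp2 and chr5:65391383-65391412 on the minus strand for Rpl9. The other windows lie at chrX:134585672-134585701 on the plus strand for Rpl36a, chr9:66946053-66946082 on the plus strand for Rps27l, chr11:98026658-98026687 on the plus strand for Rpl19 and chr12:66284429-66284458 on the minus strand for Rpl10l. The run was 15 bases long in Rpl4, 14 in Rpl14, 13 in Rpl36a and 10 in Rplp2 and Rpl9. It was 9 bases in Rps27l and 5 in both Rpl19 and Rpl10l. Counted from the annotated start, the run began at -22 in Rps27l, -39 in Rpl19 and -44 in Rpl10l, and ended before the start. It began at 27 in Rpl4, 28 in Rpl36a and 30 in Rpl9, and crossed the start in Rpl14 (from -8) and Rplp2 (from -5). The longest run in the window therefore need not be the TOP tract, and its length need not be that of the tract. The members are spread over 19 chromosomes.

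Levels are given as the deposited FPKM values (fragments scaled to gene length and library size), which can be set side by side between genes because they are per length. Over all 85 members the median of the mean level was 71.9 FPKM in control embryos, 94.4 in HU embryos and 314 in cumulus cells. Of the members, 80 had a count in every control embryo, 80 in every HU embryo and 75 in every cumulus cell. Main genes that entered the tests below had a median of 68.9 FPKM in control embryos for the large subunit (43 genes) and 115 FPKM for the small subunit (30 genes).

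The highest level in control embryos belonged to a paralog. Rps27l, a p53 target and paralog of the small subunit protein gene Rps27, had 707, 829 and 1308 FPKM (lowest, median and highest of 9 control embryos) and 426, 720 and 1284 FPKM in the 8 HU embryos. Its mean was 933 ± 207 FPKM (SD, n = 9). Rpl41, whose product is a very short basic peptide of the large subunit, came next with 650 ± 459 FPKM (SD, n = 9). These 2 means differed by less than the larger SD.

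The genes of the P-stalk, the lateral arm of the large subunit that recruits elongation factors, followed in control embryos with 486 ± 274 FPKM for Rplp0, 449 ± 101 for Rplp2 and 377 ± 133 for Rplp1 (SD, n = 9 each). Neighbours in this order lay within their SDs. Rps26, a small subunit protein gene at the mRNA exit channel, had 278 ± 197 FPKM in control embryos (SD, n = 9). Rpsa, which encodes both a small subunit protein and the laminin receptor, had 44.9 ± 14.7 FPKM (SD, n = 9), below the median of the members.

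At the other end, 4 main genes were at or near 0. Rpl26 had no count in any of the 29 libraries, which allows up to 3 counts in each group. Rpl30 had 25 counts over the 9 control embryos, 23 over the 8 HU embryos and 3 over the 12 cells. Rpl34 had 17, 5 and 18 counts in the same order, and Rps27 had 14, 19 and 32. These 4 did not pass the filter on low counts, which left 81 members among the 11476 genes tested. The reference annotation holds 301 ribosomal protein pseudogenes named for Rps or Rpl genes, but only 7 rows of the table carry such a name. The rule by which reads that match a gene and its copies were counted is not given in the sources used here, so levels of members with close copies are uncertain. In the reference annotation 32 members overlap small RNA genes, and whether reads of these entered the members' counts is not stated.

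**Figure D1:**
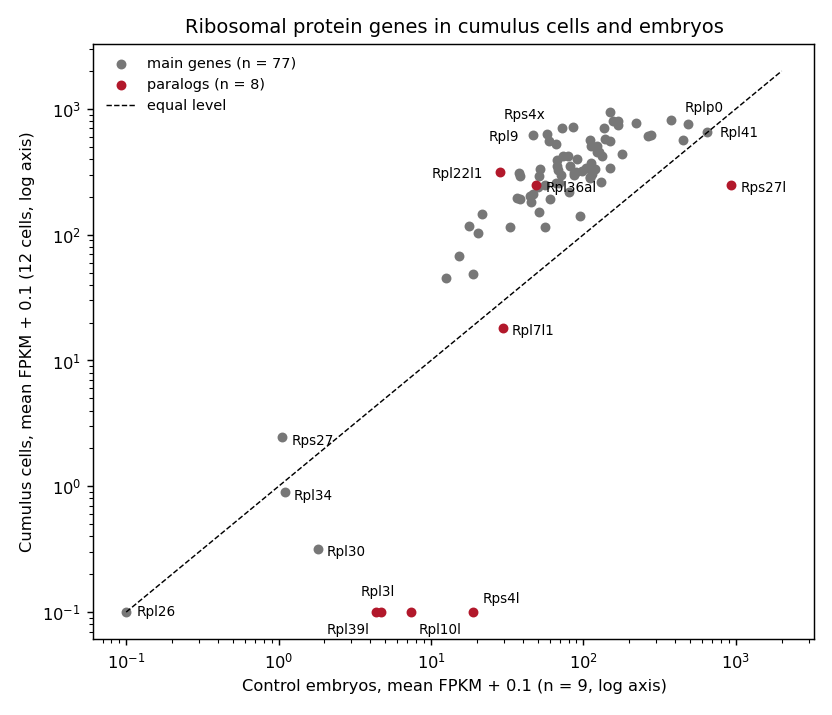
Mean FPKM + 0.1 of each of the 85 members in 9 control embryos (horizontal, log axis) and 12 cumulus cells (vertical, log axis), with main genes in grey and paralogs in red; the dashed line marks equal levels. Most main genes lie above the line, Rps27l and Rpl7l1 lie below it, and Rps4l, Rpl3l, Rpl10l and Rpl39l lie at 0 in the cells. The library sizes behind FPKM include Rn45s, whose share was larger in the cells.

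The members together took 0.500%, 0.601% and 1.14% of gene counts in control embryos (lowest, median and highest of 9) and 0.452%, 0.692% and 1.42% in HU embryos (of 8). The embryos fell into 2 sets in this share. In 13 embryos it lay between 0.452% and 0.740%, and in the other 4, control 3, HU 4, HU 5 and HU 7, it lay between 1.13% and 1.42%. The gap between the sets was 0.404 of the whole range. With Rn45s left out of the library size, the same 4 embryos were highest (1.42% to 1.67%). The others then had 0.576% to 1.09%, so the relative size of the gap depends on the scaling. The fits on marker genes and on HU are given below with and without these 4 embryos.

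The members varied together between embryos. After each treatment group was centred on its mean, the mean correlation over all pairs of the 81 tested members was 0.486 (log2 CPM + 1, 17 embryos), and 95% of pairs lay above 0, against a mean of 0.00124 over all pairs of tested genes. These correlations share libraries and scaling and are given as a description. The scaling keeps the average change over all genes small, and all tested genes were not matched to the members in level. The mean over all pairs is therefore not a matched baseline. Rps26 and Rpl14 had the highest mean correlation with the other members (0.653 and 0.652). A few paralogs did not share it: the mean correlation was -0.0926 for Rpl39l, 0.0182 for Rps27l, 0.107 for Rpl22l1 and 0.164 for Rps4l.

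The next comparison asks whether this shared variation follows genes of embryonic genome activation. Sp110, which encodes a nuclear body protein, and AF067063, a gene of unknown function transcribed at the 2-cell stage, were used as markers. Sp110 had 47.0, 78.4 and 635 FPKM in control embryos (lowest, median and highest) and 35.1, 223 and 983 FPKM in HU embryos. AF067063 had 49.5, 67.1 and 618 FPKM in control and 23.6, 169 and 793 FPKM in HU embryos. The groups overlapped in both markers. In cumulus cells AF067063 had no count and Sp110 had counts in 1 of 12 cells.

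Members rose with both markers and none fell. In edgeR's quasi-likelihood test of the slope per log2 unit of Sp110, with treatment in the model and Benjamini-Hochberg adjustment over 11475 genes, 46 of 81 members rose and 0 fell, against a background of 7.52% of genes that rose and 2.89% that fell. The fitted slope was above 0 in 80 of 81 members, against 45.2% of all genes, and its median was 0.294 against -0.0248. For AF067063, 51 of 81 members rose and 0 fell, against 6.63% and 2.2% of all genes, and the slope was above 0 in 81 of 81 members, against 45% of genes, with a median of 0.309 against -0.0245. A total of 44 members rose with both markers and 28 with neither. The 2 markers were measured in the same embryos and Zfp352 and AF067063, other genes of the 2-cell stage, rose with Sp110 themselves (slopes of 0.85 ± 0.14 and 0.93 ± 0.10, SE), so these are not separate tests.

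The fits were repeated without the 4 embryos with the highest member share (control 3, HU 4, HU 5 and HU 7), a choice made after seeing the data. Because these embryos were picked by the members' own level, leaving them out narrows the members' spread by construction. The same 4 embryos also had the most Sp110 (491 to 983 FPKM, next 331 in HU 3). They had the most AF067063 as well (284 to 793 FPKM, next 281 in HU 3). Leaving them out thus also removes the top of the range of both markers. The loss of calls does not measure the stability of the relation, and its cause was not tested. Sp110 then ranged from 6.24 to 9.27 on the log2 scale, and 0 members passed edgeR's adjusted threshold for either marker, against 0.115% of 12176 genes that rose and 0.00821% that fell with Sp110, and 0.00821% that rose and 0% that fell with AF067063. At an unadjusted p under 0.05, 20 members had a positive slope on Sp110, against 5.54% of genes, and 24 on AF067063, against 4.27%. Of the slopes on Sp110, 72 of 81 lay above 0 with a median of 0.219, and 76 of 81 on AF067063 with a median of 0.244. Among the 13 embryos the median Pearson r of the members with Sp110 was 0.309, with 73 of 81 above 0, against a median of -0.0244 and 47.5% of all genes.

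The number of detected genes moved with the markers. It ranged from 12887 to 15421 per embryo and was lower where Sp110 was higher (Pearson r = -0.625, permutation p = 0.00625, adjusted p = 0.0312 over 5 library measures; Spearman rho = -0.615, permutation p = 0.00948; 17 embryos) and where AF067063 was higher (r = -0.774, permutation p = 0.0003, adjusted p = 0.0015; rho = -0.676, permutation p = 0.0039). Without the 2 embryos farthest from the marker's median r was -0.535 and -0.602. With the number of detected genes as a further covariate, also chosen after seeing the data, 8 members rose with Sp110 (median slope 0.185), against 1.4% of genes, and 3 with AF067063 (median 0.238), against 0.488%. With that covariate 0 members fell, against 0.288% and 0.0523% of genes. Library size, the share of Rn45s, the share of mitochondrially encoded genes and counts per ERCC spike-in count had adjusted p-values of 0.728 or more.

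**Figure D2:**
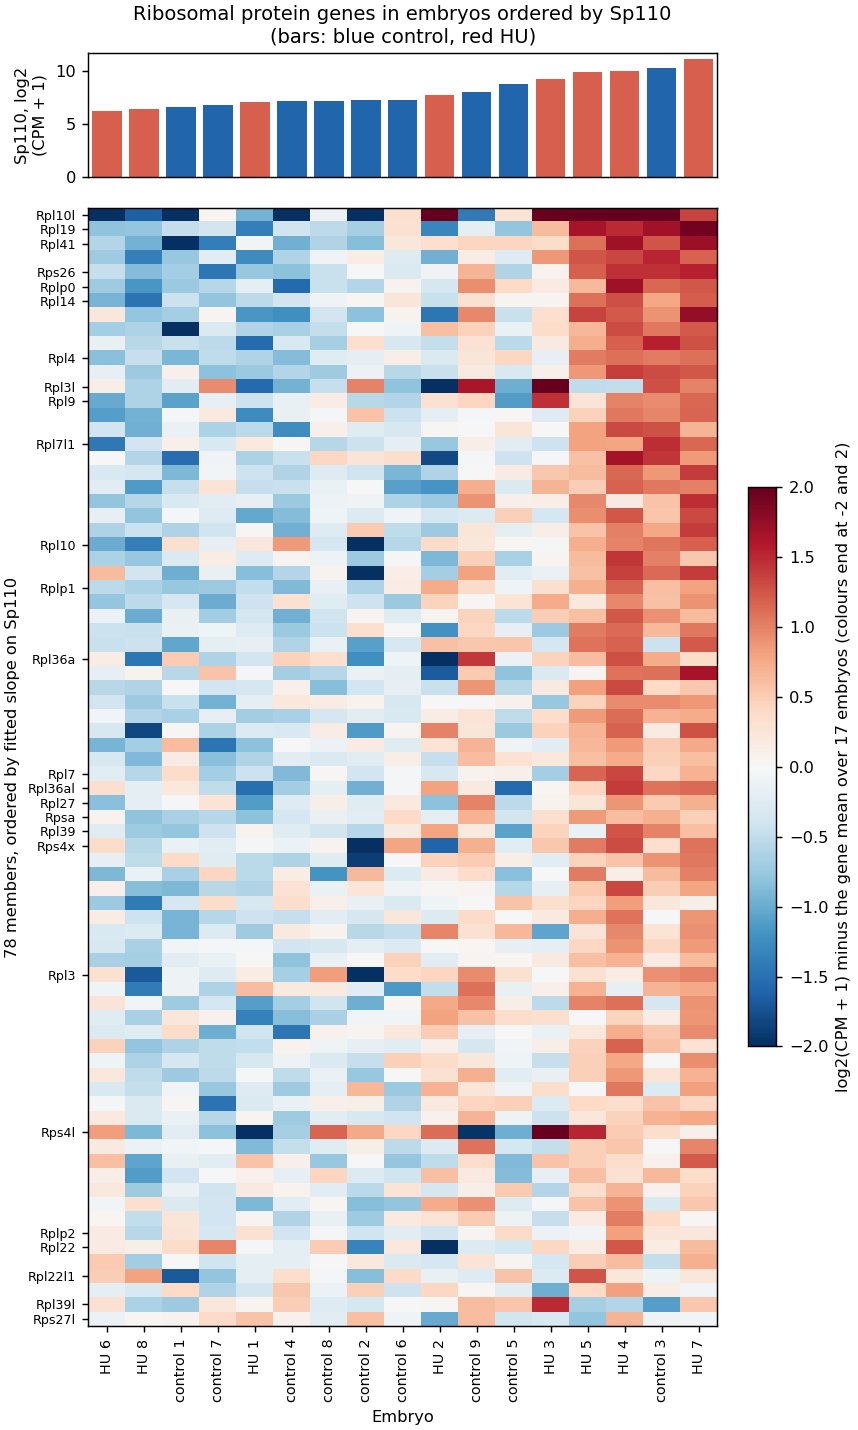
Colours show log2(CPM + 1) of 78 of the 81 tested members minus the gene's mean over 17 embryos, with members ordered by their fitted slope on Sp110 from highest (top) to lowest (bottom) and embryos ordered by Sp110 from left to right; the bars above give Sp110 itself, blue for control and red for HU embryos, and only members named in the text carry a label. The columns of HU 5, HU 4, control 3 and HU 7 are red for most members, and the rows of Rps27l and Rpl39l at the bottom show no change common to these embryos.

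By subunit, 27 of 49 tested large subunit members (55.1%) and 19 of 32 small subunit members (59.4%) rose with Sp110. The share was 60.3% among the 73 tested main genes (44 genes) and 25% among the 8 paralogs (Rpl7l1 and Rpl10l). By pyrimidine run, 21 of 40 tested members with a run of 10 bases or more rose (52.5%, median slope 0.275) and so did 12 of 21 with a shorter run (57.1%, median slope 0.304). Differences between these subsets were not tested.

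**Figure D3:**
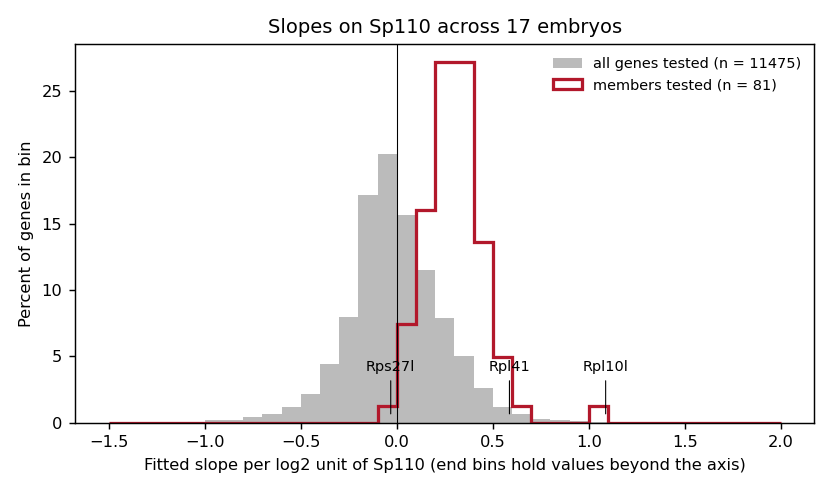
Percent of genes in each bin of the fitted slope per log2 unit of Sp110, for all 11475 genes tested (grey) and the 81 members tested (red outline). The members are centred to the right of 0, with Rps27l at the lower end and Rpl10l at the upper end.

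Rpl10l had the steepest slope. This retrogene copy of Rpl10 had 0 FPKM in 3 of 9 control embryos, a median of 4.42 and 44.0 in control 3, and in HU embryos 0, 16.4 and 28.6 FPKM (lowest, median and highest). Control 3, HU 2, HU 3, HU 4 and HU 5 had more than 20 FPKM, HU 7, with the highest Sp110, had 10.98 FPKM, and the groups overlapped. Its level rose 1.09 ± 0.28 log2 units (SE) per log2 unit of Sp110 (edgeR adjusted p = 0.0141). Across 17 embryos Pearson r was 0.789 (permutation p = 0.00032, adjusted p = 0.00979 over all genes) and Spearman rho was 0.802 (permutation p = 0.00019, adjusted p = 0.0105). Its low counts, 140 over all control embryos, limit the precision, and without control 3 the slope was 0.87 with an edgeR adjusted p of 0.209.

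Rpl19, a large subunit protein gene with a run of only 5 pyrimidines, had 46.8, 57.9 and 241 FPKM in control embryos and 27.5, 85.4 and 261 FPKM in HU embryos. The high values were those of control 3, HU 4, HU 5 and HU 7, all above 200 FPKM, while the 13 other embryos stayed below 130 FPKM. The slope was 0.63 ± 0.09 (SE; edgeR adjusted p = 7.28e-05), r was 0.854 (permutation p = 0.00012, adjusted p = 0.00656) and rho was 0.703 (permutation p = 0.00242, adjusted p = 0.0361). The slope of Rpl19 on AF067063 was 0.66 ± 0.08 (SE; edgeR adjusted p = 1.99e-05).

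Rpl41 had 140, 504 and 1633 FPKM in control embryos and 379, 915 and 2124 FPKM in HU embryos. Embryos with more Sp110 had more Rpl41 in either group, and r was 0.839 without the 2 embryos farthest from the median. The slope was 0.59 ± 0.08 (SE; edgeR adjusted p = 3.83e-05), with r = 0.881 (permutation p = 1e-05, the smallest the permutations can give; adjusted p = 0.00294) and rho = 0.895 (permutation p = 1e-05; adjusted p = 0.00267). Rpl4, a large subunit protein gene with the longest run printed above, had the highest correlation of the members: r = 0.908 (permutation p = 1e-05; adjusted p = 0.00294), r = 0.900 in control and 0.922 in HU embryos, and a slope of 0.44 ± 0.05 (SE; edgeR adjusted p = 2.49e-05). Without the 2 embryos farthest from the median, HU 7 and control 3, r was 0.867 for Rpl4. Rpl4 was named after its values were seen.

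The 3 P-stalk genes did not follow Sp110 alike. Rplp0, the scaffold of the stalk, had 168, 385 and 1027 FPKM in control embryos and 224, 476 and 1451 FPKM in HU embryos, and rose with Sp110 with a slope of 0.52 ± 0.07 (SE; edgeR adjusted p = 0.000108). Rplp1, which binds it together with Rplp2, rose with a slope of 0.34 ± 0.07 (SE; edgeR adjusted p = 0.00189). Rplp2 had 352, 387 and 645 FPKM in control and 330, 466 and 764 FPKM in HU embryos, a narrower range, and its slope of 0.11 ± 0.06 (SE; edgeR adjusted p = 0.241) did not pass. The differences between the 3 slopes were not tested.

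Rps26 rose by 0.54 ± 0.07 log2 units per log2 unit of Sp110 (SE; edgeR adjusted p = 6.49e-05). Rpsa rose by 0.27 ± 0.07 (SE; adjusted p = 0.0168), with an adjusted p of 0.0589 without control 3 and 0.0555 without HU 8. Rps27l had the lowest slope of all members, -0.03 ± 0.07 (SE; edgeR adjusted p = 0.825), with r = -0.183 (permutation p = 0.486, adjusted p = 0.669). Its slope on AF067063 was 0.03 ± 0.07 (SE), and its sign turned under several settings. Rpl39l, also among the 3 lowest on Sp110, had a slope of 0.07 ± 0.20 (SE) and did not pass (edgeR adjusted p = 0.862).

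**Figure D4:**
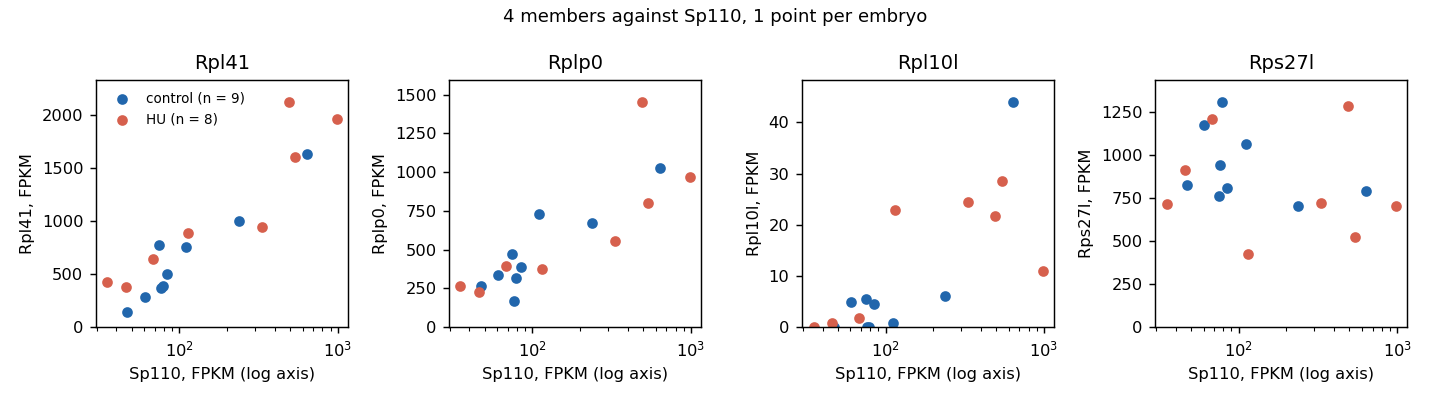
FPKM of Rpl41, Rplp0, Rpl10l and Rps27l (vertical, linear axes from 0) against FPKM of Sp110 (horizontal, log axis), 1 point per embryo, blue for 9 control and red for 8 HU embryos. Rpl41 and Rplp0 climb with Sp110 in both groups, Rpl10l is at or near 0 in most embryos with low Sp110, and Rps27l shows no trend.

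Within treatment groups the relation had the same direction. The median Pearson r of the members with Sp110 was 0.665 over 17 embryos, 0.544 in controls and 0.792 in HU embryos, and with AF067063 it was 0.713, 0.600 and 0.784. Among controls, control 3 had the most Sp110 (635 FPKM, next 237) and the highest member share (1.14%, next 0.739%). Controls without control 3 were not examined. Over all embryos without the 2 farthest from the marker's median, which include control 3, the median r was 0.604 for Sp110 and 0.598 for AF067063. By the permutation test on r, 47 members passed for Sp110 against 7.14% of all genes, and 50 for AF067063 against 6.07%. By rank correlation 37 passed for Sp110, against 5.7% of all genes, and 18 for AF067063, against 2.26%. In fits to 1 group alone, 8 of 75 members rose with Sp110 in control embryos (median slope 0.269), against 1.12% of genes, and 29 of 76 in HU embryos (median slope 0.309), against 4.94%. In these fits 0 members fell, against 0.0262% of genes in controls and 0.879% in HU embryos. No difference of slope between the treatments passed: 0 of 81 members and 0 of 11475 genes for the interaction in edgeR, with 0 members at an unadjusted p under 0.05 against 1.55% of genes in the higher and 1.03% in the lower direction.

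Other genes of the ribosome's supply were read in the same fit on Sp110, in which 7.52% of all genes rose and 2.89% fell. Fau rose with Sp110 by 0.23 ± 0.07 (SE; edgeR adjusted p = 0.0495). The call for Fau was lost in 13 of 17 fits that left out 1 embryo, with adjusted p-values of up to 0.154 (without control 3). Among 16 tested genes of translation elongation and other TOP mRNAs, 5 rose and 0 fell (median 0.165). Npm1, a nucleolar chaperone, rose by 0.32 ± 0.06 (SE; edgeR adjusted p = 0.00151), and Tpt1, a classical TOP mRNA, had a slope of 0.01 ± 0.05 (adjusted p = 0.942). Of 25 assembly factors 8 rose and 0 fell (median 0.206), among them Eif6, which keeps the subunits apart, with 0.26 ± 0.07 (adjusted p = 0.0257), while Nmd3, an export adaptor of the large subunit, had 0.15 ± 0.07 (adjusted p = 0.209). The call for Eif6 was lost without control 3 (adjusted p = 0.172), HU 4 (0.0538) or HU 8 (0.0666).

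Among 15 regulators of ribosomal protein synthesis, 2 rose and 1 fell (median 0.0567), against 7.52% and 2.89% of all genes. The gene that fell was Eif4ebp1, the mTOR target that blocks cap-dependent initiation, by 0.31 ± 0.09 per log2 unit of Sp110 (SE; edgeR adjusted p = 0.0275). Its adjusted p was 0.0908 without control 3, 0.111 without HU 6, 0.112 without HU 7 and 0.0815 without HU 8. Max, the partner of MYC, had 0.02 ± 0.09 (adjusted p = 0.929). Of 76 mitochondrial ribosomal protein genes, 13 rose and 0 fell, with a median slope of 0.0731. The 2 most abundant, Mrpl18 (0.04 ± 0.06) and Mrpl13 (-0.04 ± 0.08), did not pass (SE; edgeR adjusted p = 0.672 and 0.772). Of 11 oocyte and embryo genes 0 passed in edgeR, with 3 falling at an unadjusted p under 0.05, against 11.5% of all genes.

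Whether exposure to HU changed the members' mRNA was read from the 8 treated and 9 untreated embryos. None passed: 0 of 81 members and 0% of 11476 genes in edgeR's test, and 0 members by DESeq2, which called 2 genes higher and 1 lower overall. At an unadjusted p under 0.05, 4 members were higher and 0 lower, against 3.65% and 2.18% of genes. The fitted log2 fold change was above 0 in 74 of 81 members, against 52.7% of genes, with a median of 0.298 against 0.0275. The groups overlapped in all 81 members, and did not overlap in 0.00871% of genes.

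Of the 4 embryos with the highest member share, 3 had HU and 1 was a control, so leaving them out lowers this median by construction. Without control 3, HU 4, HU 5 and HU 7 it was -0.0981, with 28 of 81 members above 0 and 0 members past edgeR's adjusted threshold, against 0% of genes. At an unadjusted p under 0.05, 0 members were then higher, against 2.37% of genes, and 3 were lower, against 1.49%. Leaving out single embryos moved it between 0.185 (without HU 7) and 0.455 (without control 3). Sp110 itself had a log2 fold change of 1.12 ± 0.62 (SE; edgeR adjusted p = 0.840).

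The highest fitted differences belonged to Rpl10l (0.96 ± 0.97), Rps4l (0.94 ± 0.57) and Rpl41 (0.81 ± 0.42), all log2 fold changes of HU over control with SE, and edgeR adjusted p-values of 0.903, 0.842 and 0.840. The lowest were those of Rps27l (-0.18 ± 0.22), Rpl36a (-0.16 ± 0.46) and Rpl27 (-0.16 ± 0.30), with adjusted p-values of 0.920, 0.970 and 0.955. Rpl27, a large subunit protein gene, had 40.2, 59.2 and 88.3 FPKM in control and 23.2, 55.1 and 95.8 FPKM in HU embryos. All 6 genes overlapped between the groups.

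The cumulus cells show the members in the nucleus donor's cell type. As shares of each library, members took 0.375%, 2.39% and 5.18% of gene counts in the cells (lowest, median and highest of 12). The counts of the 12 cells were summed and compared with the summed control embryos with 1 CPM added, without a test. At 2-fold or more, 69 of 84 members with a count were higher in the cells, against 13.7% of 19253 genes, and 5 were lower, against 42.4%. The median log2 ratio of the members was 1.86 against -0.645. With HU embryos on the embryo side, 63 were higher, against 12.9% of genes, and 5 lower, against 43.5%. With Rn45s and mitochondrially encoded genes out of the library size, 76 were higher, against 24.4%, and 5 lower, against 34.6%, and the median was 2.80 against -0.293 over all genes. These are shares of a library: how much RNA a cell or an embryo holds is not in them. The median log2 ratio of single cells ranged from -0.832 to 3.11.

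Of the 77 main genes, 67 were higher in the cells by 2-fold or more. Rpl9, a large subunit protein gene, had 381.7 CPM in the cells (95% Poisson interval 374 to 389.6, counting error only) against 33.1 CPM in control embryos (30.9 to 35.5), a ratio of 11.2. Rps4x, an X-linked small subunit protein gene, had 515.9 against 50.5 CPM, a ratio of 10.0. Rpl41 had a ratio of 1.11, Rplp2 of 1.12, Rplp0 of 1.51, Rplp1 of 2.10 and Rpsa of 3.93. All these ratios keep Rn45s and mitochondrially encoded genes in the library size. Without them the median log2 ratio of the members rose from 1.86 to 2.80, so ratios near 1 do not show equal levels under both scalings.

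Rps27l ran the other way. Its FPKM was 64.1, 265 and 415 in the cells (lowest, median and highest of 12) and 707, 829 and 1308 in control embryos. Every cell lay below every embryo of either group in these values, with 426 FPKM in the lowest HU embryo. Their library sizes include Rn45s, which took 49.3% to 86.6% of gene counts in cells and 15.2% to 32.5% in embryos. Single libraries were not compared without Rn45s, so this order holds for this scaling only. In summed counts, also with Rn45s in the library size, it had 112.9 CPM (108.7 to 117.2) in the cells. Control embryos had 437 CPM (428.6 to 445.5), so the cells were 3.85-fold lower. Together with the 4 paralogs without a count in the cells it made up the 5 members that were lower.

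The paralog pairs were read as the share of the pair's counts that fell on the paralog. Transcripts of a pair were 61.6% to 81.8% identical over the aligned part, and the longest identical run was 10 to 38 bases, so some reads of a pair may be shared. In none of the 8 pairs did the share differ between HU and control embryos beyond the spread: the exact permutation test over all 24310 splits gave adjusted p-values of 0.583 to 0.865. The widest difference was that of Rpl36al, 69.8% ± 15.8 in HU (SD, n = 8) against 58.0% ± 12.3 in control embryos (SD, n = 9), with an exact permutation p of 0.106 and 0.583 after adjustment over 8 pairs.

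Rps4l, Rpl3l, Rpl10l and Rpl39l had counts in embryos and none in any of the 12 cells. Against the limit of 3 counts over the group of cells, the control embryos were at least 136.5-fold higher for Rps4l, 54.8-fold for Rpl3l, 47.3-fold for Rpl10l and 30.4-fold for Rpl39l. For Rpl10l the limit was 21.6-fold without control 3, which held 81 of its 140 counts in control embryos. In control embryos Rps4l took 4.17%, 20.8% and 88.2% of the counts it shared with Rps4x (lowest, median and highest), and in HU embryos 0.637%, 26.4% and 70.5%. In the cells its share was 0 of 12413 pair counts, which allows up to 0.0242%. The reference annotation (GENCODE M21 on GRCm38) lists Rps4l at chr6:148354656-148355598 on the plus strand as a transcribed processed pseudogene, opposite to Tmtc1, and the counting is not stated to use strand, so its reads cannot be told from antisense ones.

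Rpl3l took 3.36%, 8.66% and 68.6% of the counts of the Rpl3 pair in control embryos and 0.505%, 7.29% and 45.4% in HU embryos. Rpl39l took 1.85%, 11.5% and 29.4% of the Rpl39 pair in control and 2.74%, 10.3% and 22.6% in HU embryos. Rpl10l took 0%, 4.51% and 16.6% of the Rpl10 pair in control and 0%, 7.34% and 18.2% in HU embryos. The spread between embryos of 1 group was wide in each of these pairs, whose summed counts started at 35 per embryo.

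The other 4 paralogs were present in both sample types. Rpl7l1, which acts in ribosome assembly, took 47.8% ± 9.74 of the Rpl7 pair's counts in control embryos (SD, n = 9) and 7.64% in the summed cells (95% exact interval 7.24% to 8.07%). Rpl7 itself had 85.6 ± 23.4 FPKM in control embryos and 714 ± 528 FPKM in the cells (SD over 12 cells), while Rpl7l1 had 29.6 ± 17.2 and 18.1 ± 17.8 FPKM. Rpl22l1, which can replace Rpl22 in the ribosome, took 24.1% ± 11.3 of its pair in control embryos (SD, n = 9) and 51.2% in the cells (50.01% to 52.5%), with 28.4 ± 13.9 and 314 ± 200 FPKM. A share of counts depends on the lengths of both transcripts, 552 bases for Rpl22l1 and 2051 for Rpl22. Per length, as a share of the pair's FPKM, Rpl22l1 had 26.8%, 64.3% and 78.0% in control embryos (lowest, median and highest). In the cells it had 0%, 82.9% and 92.9%, so that the ranges overlap. This overlap came from cumulus 2 (13.3%, 35 pair counts) and cumulus 11 (0%, 16 pair counts). Every other cell had 80.4% or more, above all control embryos, while the highest HU embryo had 92.6%. Rpl7l1 had 16.6%, 22.7% and 39.0% of its pair's FPKM in control embryos and 0%, 4.06% and 10.9% in the cells, which do not overlap.

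Rpl36al took 58.0% ± 12.3 of its pair in control embryos (SD, n = 9) and 59.7% in the cells (58.3% to 61.1%). Rps27l took 99.9% ± 0.119 of the Rps27 pair in control embryos and 98.8% in the cells (98.4% to 99.2%), since Rps27 was near 0 in all groups. Rps27 had 14 counts over the control embryos and 32 over the cells. The rule for reads that match a gene and its copies is not given, and whether Rps27 mRNA was truly so low was not tested. This share is therefore uncertain beyond its interval, which covers counting error only, and does not show that Rps27l replaces Rps27.

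**Figure D5:**
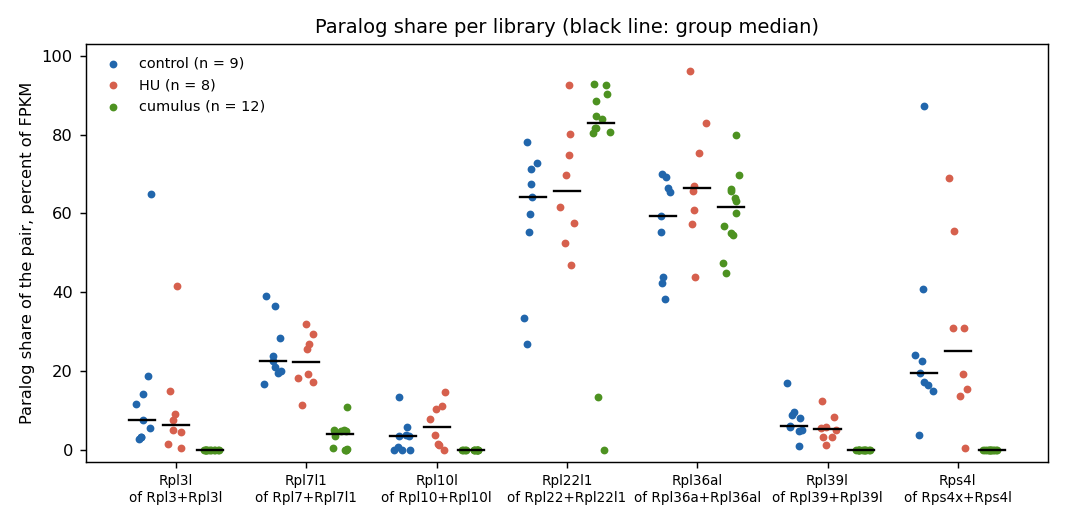
Share of each pair's FPKM that fell on the paralog, 1 point per library for 9 control embryos (blue), 8 HU embryos (red) and 12 cumulus cells (green), with group medians as black lines; Rps27l is left out because Rps27 was near 0. Rpl3l, Rpl10l, Rpl39l and Rps4l are at 0 in every cell, Rpl7l1 is lower in the cells, and control and HU embryos overlap in all 7 pairs.

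The 4 X-linked members, Rpl10, Rpl36a, Rpl39 and Rps4x, had 149 ± 80.4, 36.5 ± 16.7, 68.9 ± 33.4 and 57.3 ± 24.7 FPKM in control embryos (SD, n = 9). All 4 rose with AF067063, and 1 of 4, Rpl10, rose with Sp110 (slope 0.36 ± 0.11, SE; edgeR adjusted p = 0.0290). Rpl10 lost that call without control 3, HU 6, HU 7 or HU 8 (adjusted p-values of 0.0718 to 0.0982). On AF067063 the calls were lost in 9 of 17 fits that left out 1 embryo for Rps4x, 5 for Rpl10, 4 for Rpl36a and 2 for Rpl39 (control 3 and HU 4), with adjusted p-values of up to 0.119. Rpl36a, Rpl39 and Rps4x had slopes on Sp110 of 0.27 to 0.31 with adjusted p-values of 0.0669 to 0.185. In HU against control embryos 3 of the 4 had a fitted value above 0. In the cells all 4 were higher, by 5.85-fold for Rpl10, 4.28-fold for Rpl36a, 3.55-fold for Rpl39 and 10.0-fold for Rps4x. These ratios keep Rn45s in the library size.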

How the data were processed

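The authors deposited raw counts per gene and FPKM values for the same rows. In 18588 of 18588 genes checked, dividing counts by library sums (ERCC spike-ins left out) and by 1 length per gene gave the FPKM (tolerance 0.001). STAR 2.7.3a, R 4.0.2 and FastQC with mm10 were used, per the submitters' processing notes. Which counter, annotation and strand setting they used is not given in the sources used here. Smart-seq2 libraries carry no molecular identifiers, so intervals cover counting error only.

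Here, ERCC rows were left out, and counts of the 17 embryos were tested with edgeR 4.0.16 (TMM, filterByExpr, quasi-likelihood F test, Benjamini-Hochberg over all genes tested, threshold 0.05). SEs come from the F statistic. Marker levels in slope fits were log2(TMM CPM + 1). Pearson and Spearman p-values came from 100000 permutations, 2-sided, adjusted over all genes tested. DESeq2 1.42.0 and other scalings were alternatives. The fits were tested on simulated data. Gene models are GENCODE M21 on GRCm38.

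Members and lists were chosen with earlier results of these data known. Genes were named by rule: paralog pairs, P-stalk, Rpsa, X-linked members, the 4 most abundant per subunit, the 3 highest and lowest in each comparison, the 3 with the lowest level, and the 2 most abundant of each other list. Some genes that this rule names are not reported here.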

Additional observations from a re-analysis of the deposited data

Results flagged for a closer look

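In 66 groups of embryos (9 or 8 values each), the highest or lowest embryo was compared with its nearest neighbour by Dixon's criterion. For normally distributed values chance passes it in about 1 in 20 groups. The groups share embryos, and several genes were named for results in these same embryos, so that rate need not hold and the flags are not independent. There were 13 such values, all at the high end, and 8 belonged to control 3. In that embryo the members took 1.14% of gene counts, with the next control embryo at 0.739%, and Rpl10l took 16.6% of its pair against 7.43%. Its levels were 74.8 FPKM for Rpl7l1 (next 28.9), 44.0 for Rpl10l (next 6.00), 113 for Rpl36al (next 58.0), 149 for Rpl39 (next 82.0), 763 for Rps26 (next 368) and 241 for Rpl19 (next 89.3). Control 3 also had the lowest total of gene counts of the embryos (1801261) and the highest Sp110 of the controls.

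Control 2 stood apart in 2 paralog shares: Rpl3l took 68.6% of its pair (next 21.3%, from 35 counts in all) and Rps4l 88.2% (next 42.6%). HU 3 stood apart in Rpl3l, with 45.4% of the pair (next 17.1%) and 24.0 FPKM (next 5.60), and in Rpl39l, with 15.6 FPKM (next 6.08).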

How the results depend on the processing

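The number of members that rose with Sp110 was 46, against 7.52% of genes, and 33 to 50 when single embryos were left out. The share of all genes that rose is given in brackets below. The number was 7 with a replicate block (71 of 11321 genes) and 8 with detected genes as a covariate (1.4% of genes), where the members' median slope was 0.185. It was 24 without the 2 embryos farthest from the marker's median (3.4%), 8 of 75 in controls alone (1.12%) and 29 of 76 in HU embryos alone (4.94%). Without the 4 embryos of high member share it was 0 (0.115%). For AF067063 the number was 51, against 6.63% of genes (39 to 53 members without single embryos). It was 30 with ERCC scaling (396 of 11475 genes), 17 with a replicate block (208 of 11321 genes) and 3 with detected genes (0.488% of genes). It was 20 without the 2 farthest (1.76%), 8 of 75 in controls alone (1.17%), 30 of 76 in HU alone (4.69%) and 0 without the 4 (0.00821%). Fewer embryos were fitted in the last 4 settings, and the replicate block left out control 9, which has no HU embryo of its number. Otherwise the cause was not tested. The HU median of 0.298 became -0.0981 without the 4. These were picked by the members' own share. Replicate numbers gave no sign of pairing: same-numbered embryos had correlations of -0.102 to 0.188, 1 of 8 over 0.1, and 0 of 8 controls was closest to its own number.

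Signs turned, with no call, as follows. For HU, Rpl36a was 0.00345 with ERCC scaling (-0.426 to 0.0665 without single embryos). With the replicate block, slopes on Sp110 were -0.0605 for Rpl3l and -0.288 for Rpl39l, the slope of Rpl39l on AF067063 was -0.426, and the HU difference in the Rps4l share was -0.966 points. With detected genes, the slope of Rpl22 on Sp110 was -0.0164. In controls alone Rpl22 had -0.133. Without the 4 embryos Rpl22 had -0.119 and Rpl36al -0.0512. Rps27l on AF067063 was -0.0303 with ERCC scaling, -0.00284 with plain library size, -0.122 with detected genes, -0.0409 without the 2 farthest, -0.0187 in controls alone and -0.0122 without the 4. Without single embryos, slopes on Sp110 spanned -0.00469 to 0.176 (Rpl39l) and -0.0791 to 0.00618 (Rps27l), slopes on AF067063 -0.0509 to 0.0738 (Rps27l) and -0.048 to 0.194 (Rpl39l), and HU share differences -9.09 to 2.24 points (Rpl3l) and -3.63 to 9.53 points (Rps4l).

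Counts of members past 2-fold between cells and embryos stayed within 1.5 times under all 6 alternatives, while the count over all genes that were higher in the cells went from 2645 to 4691 without Rn45s and mitochondrially encoded genes and to 1455 by medians over libraries. Leaving out single control embryos moved the limit by over 1.5 times only for Rpl10l, among the 4 paralogs with no count in the cells. Pairs with few counts per embryo limit the paralog shares.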
